A study of Mus musculus with 8 samples.

Results

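Collagen, laminin and basement membrane genes were examined in cultured mouse cortical neurons that lack the histone variant H2BE. The set held 68 genes of the 26229 in the authors' deposited table. They are the collagen chains and laminin chains by symbol, plus nidogens (Nid1, Nid2), perlecan (Hspg2), agrin (Agrn), fibronectin (Fn1), fibulins (Fbln1, Fbln2, Fbln5), Sparc, periostin (Postn), matrix Gla protein (Mgp) and the small proteoglycans Lum, Dcn and Bgn, each with 3 or more normalized counts on average. The members of lowest count were Col8a2 at 5.44 and Lamc3 at 6.05, and Col6a6 at 2.91 lay just under the limit. All 68 were among the 18085 genes tested.

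The H2BE-KO group was 4 libraries of primary cortical neurons of genotype H2BE-KO/mCherry-KI, a loss of H2BE, which H2bc21 encodes, with a knocked-in mCherry. The WT group was 4 libraries of wild-type neurons. Both were taken from E16.5 embryos, grown for 12 days and sequenced as polyadenylated RNA. The titles name the libraries biological replicates 1 to 4 of each group. Strain, sex and any pooling of embryos are not stated in the labels.

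Basement membranes are thin sheets of matrix built on a laminin polymer at the cell surface and a collagen IV network, which nidogens and the proteoglycans perlecan and agrin link. In the brain they line the pial surface and blood vessels, and endothelial cells, mural cells, meningeal fibroblasts and astrocytes make most of their parts. Fibrillar collagens and small leucine-rich proteoglycans belong to fibrous tissue such as the meninges, whereas neurons themselves make agrin and several transmembrane and fibril-associated collagens.

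Values of log2 fold change, their standard error (SE) and the adjusted p come from the authors' deposited table, a DESeq2 Wald test, and are written as H2BE-KO over WT. The header gives no direction. It was read from H2bc21, whose implied level was 185 normalized counts in H2BE-KO and 2033 in WT (log2 fold change -3.45, SE 0.19, adjusted p = 4.49e-68). Were that reading wrong, each direction given here would be opposite. No values per library were used, so the SE carries the replicate error, and genotype levels are those implied by the mean normalized count over all 8 libraries together with the fold change, taken as the ratio of the group means. In bulk RNA, fewer cells of a type and less RNA per cell cannot be told apart. A gene was called at an adjusted p under 0.05 over all tested genes.

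Most of these genes were expressed at low levels. Per kilobase of exon, the median over the 68 members was 11.3 mean normalized counts, against 105 over all tested genes with an annotated length, and 9 members lay above that median of all genes. Agrn, which encodes a heparan sulfate proteoglycan best known for gathering acetylcholine receptors at the neuromuscular junction, stood highest at 627 per kb. Sparc, a secreted collagen-binding protein gene, followed at 282 per kb, Col4a2 at 219, Fbln1 at 176, Col4a1 at 152, Dcn at 145, Col26a1 at 141, Col6a1 at 118, Lamc1 at 111 and Lamb1 at 103. These 10 made up 68.5% of the summed level per kb of the members. The lowest were the minor collagen IV chains Col4a4 at 0.776 and Col4a6 at 0.912 per kb.

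**Figure D1:**
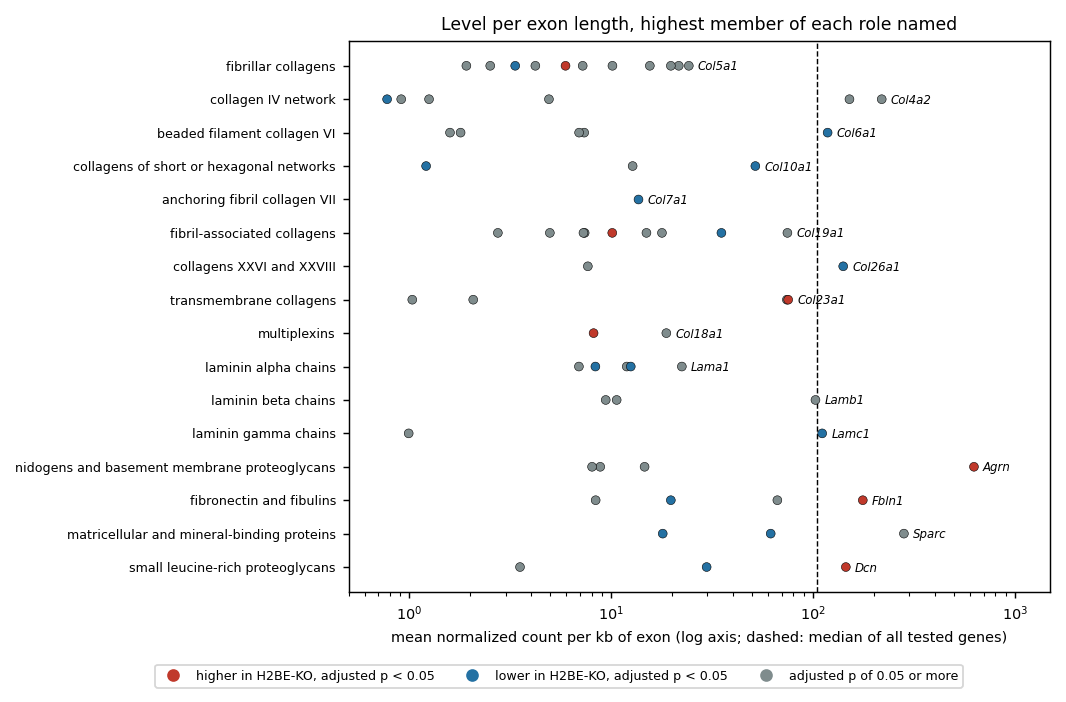
Mean normalized count per kilobase of exon (log axis) of 67 of the 68 members, 1 point per gene, by role; colours mark calls in H2BE-KO against WT and the dashed line is the median of all tested genes. Agrn at 627 per kb is the rightmost point, and most members lie left of the dashed line at 105.

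Of the 68 members, 7 rose and 16 fell in H2BE-KO and 45 did not pass the test. The share of members called was 33.8%, against 21.8% of all tested genes in the authors' deposited table. The higher calls made up 10.3% of the members, against 11.0% of all tested genes, and the lower calls 23.5%, against 10.9%. The median log2 fold change was -0.23 over the members and -0.02 over all tested genes. Below 0 lay 43 of the 68 members and 9439 of all 18085 tested genes. Of the called members, 12 fell and 4 rose by at least 1 on the log2 scale. Both limits were passed by 1230 of all 18085 tested genes, in either direction. At an unadjusted p under 0.05 the deposited test gave 9 higher and 20 lower members, 29 of 68. Of all 18085 tested genes 5970 passed that limit in either direction. None of the 23 calls held under a t null on 6 degrees of freedom or under a null whose scale (1.95) was estimated from all tested genes. The loss was not particular to the members. Of all 18085 tested genes 1 was called under the t null, and 59 higher and 25 lower under the estimated null.

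The share called depended on the count. Of the 34 members with a mean normalized count under 100, 8 were called (23.5%, against 9.59% of all tested genes in that range). Between 100 and 1000 it was 13 of 28 (46.4%, against 26.1%), and at 1000 or more 2 of 6, against 30.6%. The median SE of the log2 fold change was 0.526 for members under 100, against 0.664 for all tested genes in that range, but 0.351 between 100 and 1000, against 0.198. Of the 45 members not called, 14 had a 95% interval of the log2 fold change that lay within -1 and 1, among them Col4a1, Col4a2, Sparc, Lamb1, Lama1, Col5a1 and Col5a2. For the other 31 a change of at least 1 on the log2 scale was within the interval.

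**Figure D2:**
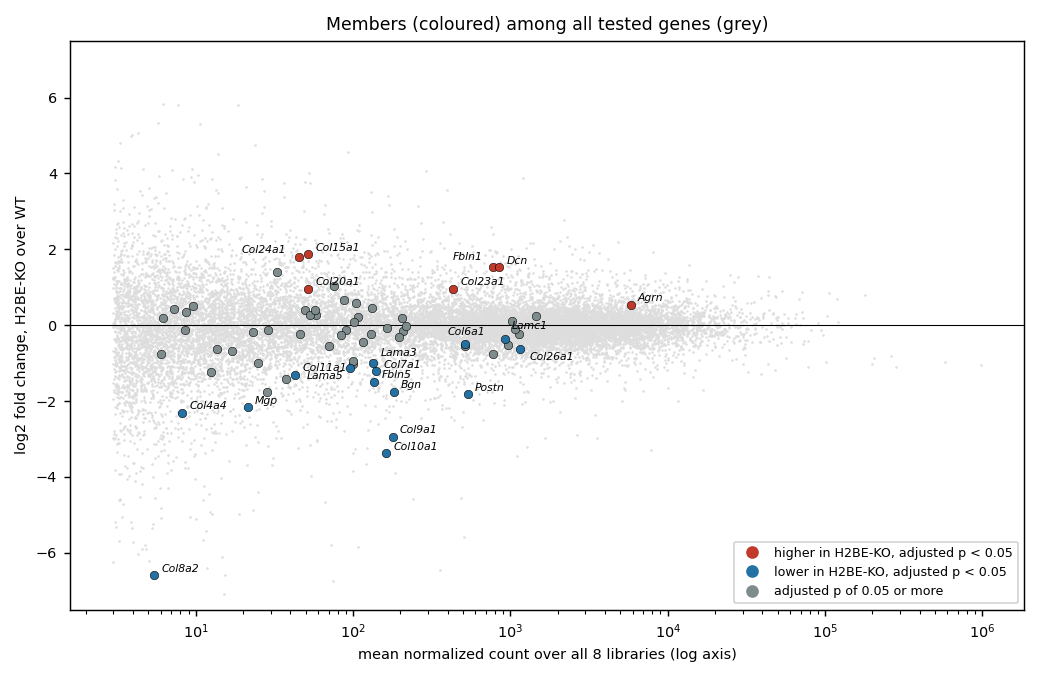
Log2 fold change of H2BE-KO over WT against the mean normalized count over all 8 libraries (log axis); grey points are all tested genes, apart from 2 outside the plotted range, and large points are 67 of the 68 members, with called ones named. The lower calls reach down to Col10a1 and Col8a2, and Agrn is the most abundant member.

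The called genes with the lowest log2 fold changes were Col8a2, Col10a1 and Col9a1. Col10a1, the collagen X gene that marks hypertrophic cartilage, had an implied level of 28.4 normalized counts in H2BE-KO and 296 in WT. Its log2 fold change in the authors' deposited table was -3.38 (SE 0.49, adjusted p = 6.28e-10). It shares 18 exon bases with Nt5dc1 on the opposite strand, which had a mean count of 9.66. Col9a1, which encodes a chain of the fibril-associated collagen IX of cartilage, had an implied level of 40.9 in H2BE-KO and 316 in WT (-2.95, SE 0.68, adjusted p = 2.41e-04). The other chains of collagen IX, Col9a3 (-1.76, SE 0.71, adjusted p = 0.0587) and Col9a2 (-0.12, SE 0.87), did not pass. Col8a2, a network collagen gene of the cornea and vessels, gave -6.60 (SE 1.58, adjusted p = 4.62e-04), with an interval from -9.70 to -3.49, on 5.44 mean counts. Its partner Col8a1 was at -1.04 (SE 0.52, adjusted p = 0.144). Col7a1, the gene of the anchoring fibrils that fix epithelia to the tissue beneath, fell (-1.21, SE 0.33, adjusted p = 0.0021).

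The fibrillar collagens, which form the cables of connective tissue, gave 1 higher and 1 lower call among 11 chains (9.09% each, against 11.0% higher and 10.9% lower of all tested genes). Their median fold change was -0.17 on the log2 scale. Col24a1, a minor fibrillar collagen gene, had an implied level of 70.3 in H2BE-KO and 20.2 in WT, at 1.80 (SE 0.53, adjusted p = 0.00619) in the authors' deposited table. Col11a1, whose product nucleates fibrils in cartilage, had 24.6 in H2BE-KO and 60.7 in WT (-1.30, SE 0.34, adjusted p = 0.00144). The 2 chains of collagen I, the commonest fibrillar collagen, were at -0.24 (Col1a1, SE 0.40) and -0.14 (Col1a2, SE 0.46) and were not called. Col3a1, a collagen of vessels and meninges and in mouse cortex a ligand of the receptor Adgrg1, was at -0.96 (SE 0.51, adjusted p = 0.175). Col2a1, the main collagen of cartilage, was at -0.19 (SE 0.46, adjusted p = 0.816) and Col11a2, a partner of Col11a1, at 0.22 (SE 0.34, adjusted p = 0.691).

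Collagen IV, the network former of every basement membrane, was carried by Col4a1 and Col4a2. Col4a1 had an implied level of 1044 normalized counts in H2BE-KO and 1219 in WT, and Col4a2 had 1573 in H2BE-KO and 1326 in WT. Neither was called in the authors' deposited table: Col4a1 was at -0.22 (95% interval -0.69 to 0.25) and Col4a2 at 0.25 (-0.07 to 0.56). The minor chains were scarce, at mean counts between 7.27 and 33.0. Among them Col4a4, a chain of the kidney glomerulus, fell (-2.30, SE 0.75, adjusted p = 0.0134). Its partners Col4a3 (-1.23, SE 0.72) and Col4a5 (1.40, SE 0.65, adjusted p = 0.112) and the further chain Col4a6 (0.43, SE 1.03) did not pass. The chains are encoded in head-to-head pairs, so the bases between or across the starts of a pair belong to both genes. Those of the abundant pair and of the pair with a call are shown for that reason, on the plus strand of GRCm38.p6 as given by RefSeq. Annotated starts come from GENCODE M21, and capitals mark a GC box, GGGCGG on either strand. The first exons of Col4a1 and Col4a2 overlap by 22 bases at chr8:11312805-11312826, and 71 bases part the starts of Col4a4 and Col4a3 at chr1:82586850-82586920.
Col4a1 and Col4a2: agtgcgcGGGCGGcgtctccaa
Col4a4 and Col4a3: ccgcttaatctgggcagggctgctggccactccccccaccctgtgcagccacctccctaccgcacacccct

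Collagen VI, a beaded filament collagen found beside basement membranes, was represented mainly by Col6a1. Col6a1 had an implied level of 431 in H2BE-KO and 604 in WT, at -0.49 (SE 0.17, adjusted p = 0.0261) in the authors' deposited table. Its assembly partners Col6a2 (0.26, SE 0.33) and Col6a3 (0.67, SE 0.35, adjusted p = 0.163) were not called, nor were Col6a4 and Col6a5, at mean counts of 13.6 and 16.9. Per kb, Col6a1 was 17.0 times as high as Col6a2 and 16.1 times as high as Col6a3. These ratios depend on the annotated exon lengths, 4.38 kb for Col6a1, 8.33 kb for Col6a2 and 12.0 kb for Col6a3. Their mean counts were 517, 57.8 and 88.0.

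Of 4 transmembrane collagens and 2 multiplexins, 1 each rose in H2BE-KO (25% and 50%, against 11.0% of all tested genes). None fell, against 10.9% of all tested genes, and groups this small would often hold no lower call at that share. At an unadjusted p under 0.05 the DESeq2 test gave no lower one either. Col23a1, a transmembrane collagen gene, had an implied level of 571 in H2BE-KO and 294 in WT (0.96, SE 0.30, adjusted p = 0.0109 in the authors' deposited table). Col25a1, a transmembrane collagen of neurons, was at -0.54 (SE 0.36, adjusted p = 0.305), and Col13a1 and Col17a1 had mean counts under 10. Col15a1, a multiplexin of the outer face of basement membranes, had 81.6 in H2BE-KO and 22.3 in WT (1.87, SE 0.52, adjusted p = 0.00298). Its relative Col18a1, the source of endostatin, was at 0.46 (SE 0.29, adjusted p = 0.259). Among fibril-associated collagens other than collagen IX, Col20a1 rose (0.96, SE 0.32, adjusted p = 0.0188). Col12a1 (1.03, SE 0.41, adjusted p = 0.0569) and Col19a1 (-0.56, SE 0.41, adjusted p = 0.362), which is expressed by neurons, did not pass. Col26a1, a collagen with an EMI domain and the collagen gene of highest level after the main collagen IV chains, had 904 in H2BE-KO and 1404 in WT (-0.63, SE 0.20, adjusted p = 0.0123).

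**Figure D3:**
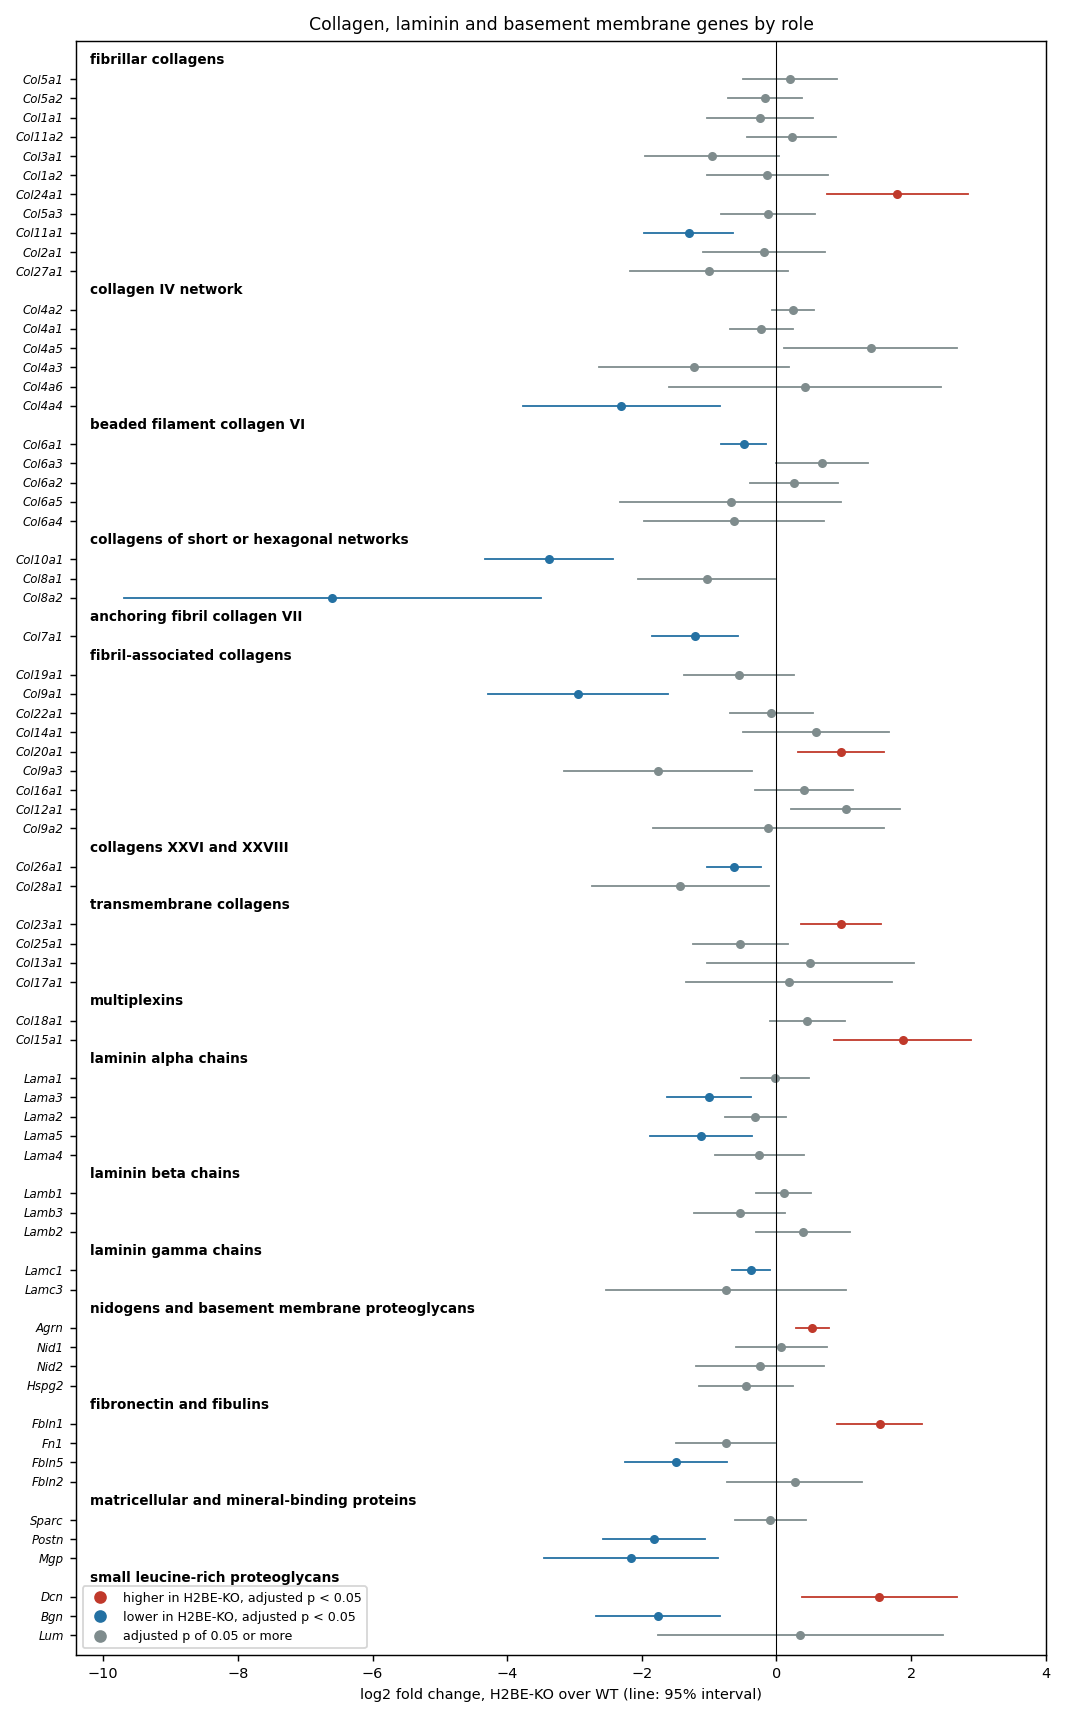
Log2 fold change of H2BE-KO over WT (points) with its 95% interval (lines) for 67 of the 68 members, by role and, within a role, by level per kb; red and blue mark genes higher and lower in H2BE-KO at an adjusted p under 0.05. All 5 laminin alpha chains lie below 0, although Lama1 turns to 0.0079 after centring on the median of all tested genes, and Col8a2 has the widest interval.

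Laminins are trimers of an alpha, a beta and a gamma chain. Of 11 chains, 4 fell (36.4%, against 10.9% of all tested genes) and none rose in H2BE-KO (against 11.0%). Their median was -0.38 on the log2 scale. At unadjusted p under 0.05 the same test gave no higher laminin chain either. Lamc1, the gamma chain of most laminins, had an implied level of 799 normalized counts in H2BE-KO and 1038 in WT (-0.38, SE 0.14, adjusted p = 0.0409 in the authors' deposited table). Its call was lost without a filter on low counts and after centring on the median of all tested genes. Lama5, an alpha chain of mature vascular basement membranes, had 59.8 in H2BE-KO and 130 in WT (-1.13, SE 0.39, adjusted p = 0.0213). Lama3, an alpha chain of epithelial laminin, had 89.3 in H2BE-KO and 180 in WT (-1.01, SE 0.32, adjusted p = 0.0108). Lamb3, a beta chain of epithelial laminin, was at -0.55 (SE 0.34, adjusted p = 0.259). The most abundant beta chain, Lamb1, was at 0.10 (95% interval -0.30 to 0.51), with 1057 in H2BE-KO and 983 in WT. Lama1, the alpha chain of the pial basement membrane, was at -0.02 (-0.52 to 0.49), and Lama2, mutated in congenital muscular dystrophy, at -0.32 (-0.77 to 0.14). Lama4 (-0.26, SE 0.34), Lamb2 (0.39, SE 0.35) and Lamc3 (-0.75, SE 0.91, mean count 6.05) were not called. Lamb1 and Lamc1 lay at like levels, 103 and 111 per kb, whereas the highest alpha chain, Lama1, was at 22.4 per kb.

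Among the 4 linkers of basement membranes Agrn alone was called (25%, against 21.8% of all tested genes). It had an implied level of 6890 in H2BE-KO and 4757 in WT, 1.45-fold higher (log2 0.53, SE 0.13, adjusted p = 4.73e-04 in the authors' deposited table). Nid1 (0.07, SE 0.35), Nid2 (-0.25, SE 0.48) and Hspg2 (-0.45, SE 0.36) had mean counts from 45.7 to 115. Nid2 shares 437 exon bases with Rtraf on the opposite strand, whose mean count was 3507, and whether counting used strand is not stated in the labels.

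Fibulins and small leucine-rich proteoglycans split within each family. Fbln1, a fibulin of basement membranes and elastic fibres, had 1145 in H2BE-KO and 396 in WT, 2.89-fold higher (log2 1.53, SE 0.32, adjusted p = 5.12e-05 in the authors' deposited table). Fbln5, needed for elastic fibre assembly, had 71.7 in H2BE-KO and 201 in WT (-1.49, SE 0.39, adjusted p = 0.00132), and Fbln2 was at 0.27 (SE 0.51). Dcn, the decorin gene, had 1261 in H2BE-KO and 437 in WT (1.53, SE 0.59, adjusted p = 0.0452), a call lost without a filter on low counts and after removal of a length and GC trend. Its close relative Bgn, the biglycan gene, had 82.9 in H2BE-KO and 280 in WT (-1.75, SE 0.47, adjusted p = 0.0021). Lum was scarce, at a mean count of 8.66. Fn1, the fibronectin gene, was at -0.76 (SE 0.37, adjusted p = 0.137), with 579 in H2BE-KO and 977 in WT. Of the remaining secreted proteins, Postn, a fibroblast product that crosslinks matrix, had 237 in H2BE-KO and 837 in WT (-1.82, SE 0.39, adjusted p = 5.47e-05). Mgp, an inhibitor of calcification in vessels and cartilage, had 7.81 in H2BE-KO and 34.9 in WT (-2.16, SE 0.66, adjusted p = 0.00799). Sparc was at -0.09 (95% interval -0.62 to 0.43).

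**Figure D4:**
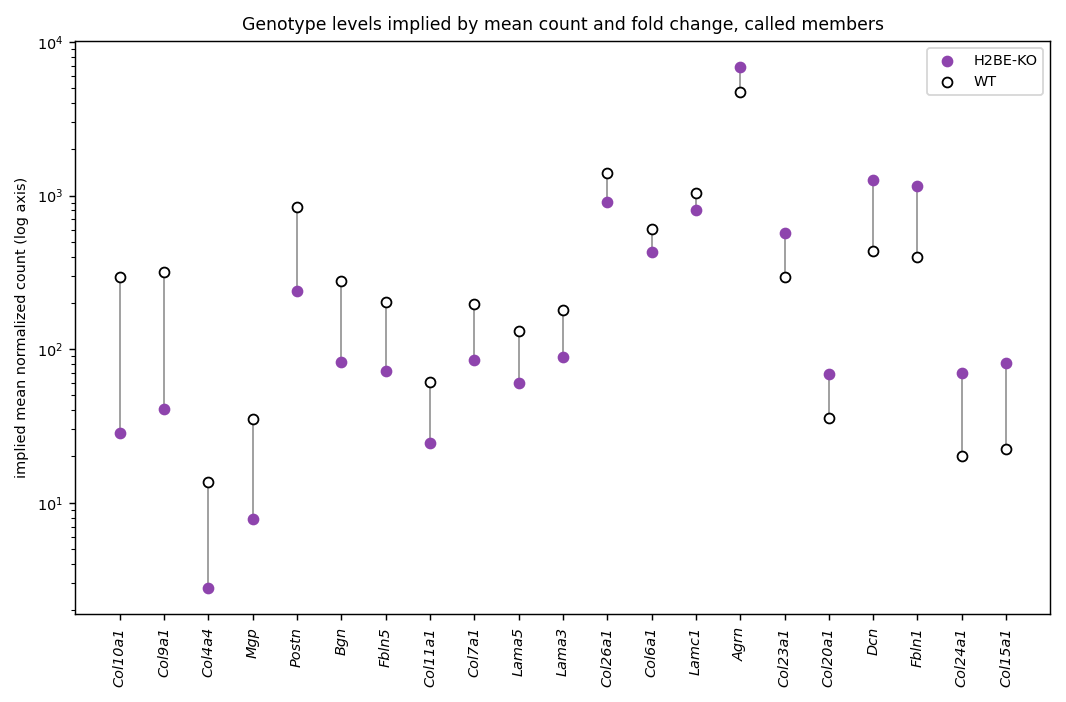
Levels in H2BE-KO (filled) and WT (open) of 21 of the 23 called members in normalized counts (log axis), each pair implied by the mean over all libraries and the deposited fold change; Col8a2 is left out since its implied H2BE-KO level is below 1. Col10a1 and Col9a1 have wide gaps with H2BE-KO below WT, and Fbln1, Dcn, Col24a1 and Col15a1 have H2BE-KO above WT.

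The bases upstream of the start are shown for the 3 lower and the 3 higher members of smallest adjusted p that have an entry in the RefSeq promoter table, where 48 of the 68 members matched. Each sequence holds the 250 bases before the RefSeq start nearest the annotated gene start, on the gene's strand, in GRCm38.p6. Capitals mark matches to 4 letter patterns searched on both strands. The TATA box was searched as TATAAA, an element near the start of many tissue-specific genes. The promoter element bound by the factor NF-Y was searched as CCAAT. The GC box, common in housekeeping promoters, was searched as GGGCGG. The AP-1 site was searched as TGANTCA, the letters bound by Fos and Jun. Matches of the GC box may overlap each other. The first group holds the lower genes Col10a1 (chr10:34389731-34389980, plus strand), Postn (chr3:54360857-54361106, plus strand) and Col9a1 (chr1:24177360-24177609, plus strand).
Col10a1: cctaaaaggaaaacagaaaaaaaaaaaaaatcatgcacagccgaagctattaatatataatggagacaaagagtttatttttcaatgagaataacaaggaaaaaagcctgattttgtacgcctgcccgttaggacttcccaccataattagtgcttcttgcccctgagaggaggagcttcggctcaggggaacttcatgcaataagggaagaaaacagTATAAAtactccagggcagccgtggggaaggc
Postn: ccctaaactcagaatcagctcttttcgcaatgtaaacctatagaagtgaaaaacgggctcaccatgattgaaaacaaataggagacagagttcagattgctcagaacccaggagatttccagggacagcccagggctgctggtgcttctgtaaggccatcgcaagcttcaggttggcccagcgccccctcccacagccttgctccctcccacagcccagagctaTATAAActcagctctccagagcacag
Col9a1: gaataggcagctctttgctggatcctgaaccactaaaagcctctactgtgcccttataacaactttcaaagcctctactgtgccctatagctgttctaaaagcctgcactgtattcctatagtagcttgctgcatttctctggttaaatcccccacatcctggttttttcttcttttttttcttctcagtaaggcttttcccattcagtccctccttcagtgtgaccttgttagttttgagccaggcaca

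The second group holds the higher genes Fbln1 (chr15:85205699-85205948, plus strand), Agrn (chr4:156197489-156197738, minus strand) and Col15a1 (chr4:47207762-47208011, plus strand).
Fbln1: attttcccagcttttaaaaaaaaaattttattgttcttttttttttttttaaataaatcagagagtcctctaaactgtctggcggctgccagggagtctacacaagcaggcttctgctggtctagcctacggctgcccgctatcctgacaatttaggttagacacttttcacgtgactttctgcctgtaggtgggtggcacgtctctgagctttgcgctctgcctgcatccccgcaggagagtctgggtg
Agrn: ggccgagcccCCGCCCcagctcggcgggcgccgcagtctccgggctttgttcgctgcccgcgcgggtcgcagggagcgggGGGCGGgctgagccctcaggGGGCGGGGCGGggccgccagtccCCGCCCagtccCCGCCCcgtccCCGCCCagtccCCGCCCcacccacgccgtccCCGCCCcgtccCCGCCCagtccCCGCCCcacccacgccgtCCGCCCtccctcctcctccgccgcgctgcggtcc
Col15a1: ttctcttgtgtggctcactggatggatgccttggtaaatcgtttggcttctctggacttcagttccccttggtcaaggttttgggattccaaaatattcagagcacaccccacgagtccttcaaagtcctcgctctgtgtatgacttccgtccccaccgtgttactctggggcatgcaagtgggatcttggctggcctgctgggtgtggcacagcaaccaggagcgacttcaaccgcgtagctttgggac

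Col10a1 and Postn each held a TATA box, 32 and 26 bases before the start, and Agrn held 12 GC boxes. The other 3 windows held none of the 4 patterns. Over the 48 members with a window, 6 held a TATA box (12.5%, against 7.08% of 12325 windows of tested genes) and 28 a GC box (58.3%, against 57.2%). A CCAAT box was in 15 (31.2%, against 36.1%) and an AP-1 site in 1, that of Col6a1 (2.08%, against 4.37%).

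Genes that make, process and bind the matrix were set beside the members in 5 lists. Of 124 tested genes on these lists, 21 rose and 21 fell in H2BE-KO (16.9% each way, against 11.0% higher and 10.9% lower of all tested genes), with a median log2 fold change of -0.13. None of these calls held under the t null, which left 1 call among all tested genes. Nor did any hold under the estimated null, which left 59 higher and 25 lower among all. Of 24 genes that modify and secrete collagen, 7 fell (29.2%) and 1 rose (4.17%), with a median of -0.39. Plod1, a collagen lysyl hydroxylase gene, was at -0.95 (SE 0.19, adjusted p = 2.42e-05 in the authors' deposited table). Tmem38b, a cation channel gene of the endoplasmic reticulum, was at -0.86 (SE 0.19) and P4ha1, a subunit of prolyl hydroxylase, at -0.43 (SE 0.11). Colgalt1, a collagen galactosyltransferase gene, rose (0.52, SE 0.10). Of 15 genes of propeptide cleavage and crosslinking, 3 rose (20%) and 2 fell (13.3%). Adamts2, the procollagen N-proteinase gene, rose (2.37, SE 0.48, adjusted p = 2.09e-05). Pxdn, whose product crosslinks collagen IV, rose as well (0.97, SE 0.21). Pcolce, an enhancer of procollagen C-proteinase, fell (-2.66, SE 0.52, adjusted p = 1.03e-05) and the proteinase gene Tll1 did as well (-1.34, SE 0.32).

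Among 29 matrix receptor genes 6 rose (20.7%, against 11.0% of all tested genes) and 3 fell (10.3%, against 10.9%). Their median was 0.02 on the log2 scale. The collagen receptor kinases went opposite ways: Ddr1 rose (0.95, SE 0.20) and Ddr2 fell (-1.10, SE 0.21) in the authors' deposited table. The syndecan genes Sdc3 (0.74, SE 0.12) and Sdc1 (0.68, SE 0.16) rose. Of 24 protease and inhibitor genes 4 rose and 4 fell (16.7% each, against 11.0% higher and 10.9% lower of all tested genes). Adamts5, an aggrecanase gene, fell (-2.45, SE 0.36) and Hpse, the heparanase gene, did as well (-3.84, SE 0.60), while the membrane-bound proteases Mmp17 (0.78, SE 0.14) and Mmp24 (0.38, SE 0.08) rose. Other basement membrane and elastic fibre genes numbered 32 tested, with a median of -0.23. Of these 7 rose (21.9%, against 11.0% of all tested genes) and 5 fell (15.6%, against 10.9%). Eln, the elastin gene, rose (1.57, SE 0.28) and Ltbp4, a latent TGF-beta binding protein gene, did as well (1.04, SE 0.19). Ltbp2 fell (-2.28, SE 0.48) and Spock1, a testican gene, did as well (-0.51, SE 0.12).

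**Figure D5:**
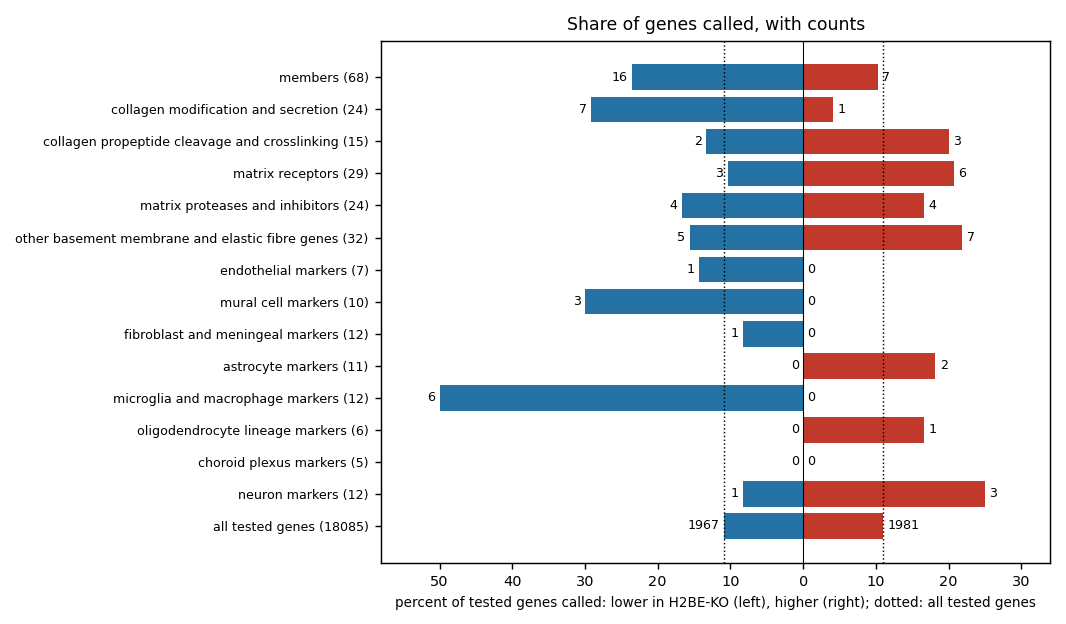
Percent of tested genes called in H2BE-KO against WT, lower to the left and higher to the right, with the number called at each bar and the number tested in brackets; dotted lines mark all tested genes. The members reach 23.5% to the left and 10.3% to the right, and microglia markers reach 50% to the left.

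Some markers of cells that make matrix were lower in H2BE-KO too, and their part in the results above was not tested. The cultures carried neuron markers at a median mean normalized count of 22480 over 12 genes, of which Tubb3 (0.74, SE 0.12), Rbfox3 (0.72, SE 0.19) and Slc17a7 (0.75, SE 0.24) rose and Gad1 fell (-1.02, SE 0.29) in the authors' deposited table. The calls were 25% higher and 8.33% lower of this list, against 11.0% and 10.9% of all tested genes. Of the 12 neuron markers 6 lay above 0 and 6 below, with a median of -0.08. Of 10 tested mural cell markers 3 fell (30%, against 10.9% of all tested genes) and none rose: the smooth muscle genes Tagln (-1.42, SE 0.38) and Acta2 (-1.73, SE 0.50), and Pdgfrb (-1.21, SE 0.43), which marks pericytes. The other 7 were not called, among them Rgs5 (-0.46, SE 0.70) and Myh11 (0.23, SE 0.57). Of the 10, 3 lay above 0, and the median was -0.49. Their summed mean count was 2104, of which Rgs5 gave 1318. Kcnj8 and Higd1b of that list had mean counts of 1.26 and 0.522 and were not tested. Of 12 tested fibroblast and meningeal markers, Prrx1, a mesenchymal transcription factor gene, fell (-3.37, SE 0.47, adjusted p = 1.01e-10) and the other 11 were not called, with a median of 0.11 over the list and a summed mean count of 1065. That 1 lower call was 8.33% of the list, against 10.9% of all tested genes. Endothelial markers were scarce: 7 of 14 were tested, at mean counts from 3.00 to 29.5. Cldn5 alone was called (-6.24, SE 1.74), which is 14.3% of those tested, against 10.9% of all tested genes called lower. Cldn5 was the marker at 3.00, and the lowest mean count of any tested gene was 2.99. Its implied level was 0.078 in H2BE-KO and 5.92 in WT, so its call is not independent of the count limit. Of the 7, 2 lay above 0, Pecam1 (0.27, SE 0.46) and Esam (0.14, SE 0.53), and 5 below. Cdh5, a defining junction gene, had a mean count of 1.33 and was not tested. Of 12 microglia and macrophage markers 6 fell (50%, against 10.9% of all tested genes) and none rose, with a median of -2.10, led by Cd68 (-2.29, SE 0.40) and Csf1r (-3.09, SE 0.66). Astrocyte markers lay the other way, with 10 of 11 above 0 and a median of 0.97. Of these 2 rose (18.2%, against 11.0% of all tested genes), Slc1a2 (0.93, SE 0.24) and Aldoc (2.04, SE 0.63). Of 6 oligodendrocyte lineage markers 1 rose (16.7%, against 11.0% of all tested genes), Mog (0.99, SE 0.17). No call of a marker named here held under the t null (adjusted p from 0.0645 to 0.169) or under the estimated null (0.0506 to 0.857). Among all tested genes the t null left 1 call, and the estimated null 59 higher and 25 lower.

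The choroid plexus marker Ttr had a mean normalized count of 1089 and a log2 fold change of -11.3 (SE 2.00) but no p-value in the authors' deposited table. It was among 9 genes of the table without a p, as were Kcnj13, Calml4 and Cldn2, which are also known from choroid plexus. Kcnj13 was at -6.57 (SE 3.83, mean count 2.96), Calml4 at -4.72 (SE 2.12, mean count 6.84) and Cldn2 at -3.47 (SE 1.74, mean count 5.555). The other genes without a p also lay below 0, among them Rpl22l1 (-0.74, SE 0.53, mean count 2023) and Hspb3 (-1.27, SE 0.62, mean count 168). DESeq2 leaves the p-value out where a count in some library stands far from the others. None of the 5 tested choroid plexus markers was called by the deposited DESeq2 test (against 21.8% of all tested genes), with 4 of them below 0 and a median of -2.27. The 2 of highest count were Folr1 at -0.62 (SE 1.02) and Kl at 1.52 (SE 0.80). Clic6 was at -5.12 (SE 2.18, adjusted p = 0.0748), Kcne2 at -3.59 (SE 1.46, adjusted p = 0.0592) and Otx2 at -2.27 (SE 2.00). Which libraries carried Ttr cannot be told from values averaged over libraries, and the share of choroid plexus RNA in the lower members was not tested.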

How the data were processed

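RNA of 4 H2BE-KO and 4 WT libraries was compared in 1 table. The build mm10 and the tools DESeq2 and DESeq are named, without a role, per the submitters' processing notes. Libraries were made with a stranded polyA kit, per the labels' protocols. Not given in the sources used here are aligner, counting tool, annotation and use of strand. Per the file headers, the deposited signal is the mean normalized count (counts over size factors) of all libraries, summing to 3.96e+07 here; depth per library is unknown. The deposited log2 fold change has its SE, the deposited score is the Wald statistic, and the deposited p-value is two-sided. The score was checked to be fold change over SE (largest gap 2.86e-07), and the adjusted p to be the Benjamini-Hochberg value over 18085 genes (largest relative gap 0.757%).

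Signs were turned to H2BE-KO over WT by H2bc21. Lengths and positions came from GENCODE M21 (GRCm38) by Ensembl ID, which matched all 68 members and 26032 rows. A level per kb is the mean count over the union of exons. Implied levels assume groups of equal size. Named were all called members, the chains of collagens I, IV and VI and of laminins (1 called member is counted but not reported here by name or in figures), the 10 highest per kb, the members next to the count limit, and in each other list up to 4 called genes of smallest adjusted p or, with none, the 2 of highest count; other members and the genes without a p were added after their values were seen. Members and lists were chosen with earlier results of these data known. The calling code was tested on simulated fold changes with normal errors of the deposited SE. That simulation shares the null of the deposited test, so it cannot show whether the calls hold under a wider null. Python 3.11.15, numpy 2.4.6, scipy 1.17.1, pandas 2.3.3 and matplotlib 3.10.9 were used.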

Additional observations from a re-analysis of the deposited data

How the results depend on the processing

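The 7 higher and 16 lower members rest on the normal null distribution of the deposited test. Under a t null on 6 degrees of freedom 0 members were called higher and 0 lower (25 at an unadjusted p under 0.05, smallest adjusted p 0.0645), as were 0 and 0 of the pathway genes, and 0 higher and 1 lower of all tested genes. With a normal null of centre -0.103 and scale 1.95 estimated from all tested genes, 0 members were higher and 0 lower (6 at an unadjusted p under 0.05, smallest adjusted p 0.0663), 0 and 0 pathway genes, and 59 and 25 of all tested genes. At an adjusted p under 0.01, 4 members were higher and 10 lower, and 1192 of all tested genes were lower. Among genes of a mean normalized count of at least 100, 4 members were higher, since 34 members remained. All other counts moved by less than 1.5 times, and 22 of 23 called members were kept both after centring on the median of all tested genes, which lost Lamc1, and after removal of a length and GC trend, which lost Dcn. Without a filter on low counts 21 were kept. Lama1, not called, turned to 0.0079 on the log2 scale after centring. The median of the members stayed between -0.33 and -0.21. No paired analysis was possible because no values per library were used, and leaving out replicates was not run for the same reason. Low counts limit what can be seen: the median SE was 0.526 for members under a mean count of 100 and 0.204 at 1000 or more.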

Other observations

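Members that lie next to each other were compared as a description. Within 500 kb of each other lay 13 pairs of neighbouring members, of which 8 had fold changes of the same sign. Col9a1, which fell, lies 9.21 kb from the end of Col19a1 (-2.95 and -0.56 on the log2 scale, the second not called). Dcn and Lum, 47.0 kb apart on chromosome 10, were at 1.53 and 0.35. On chromosome 2, Col9a3 (-1.76, not called) lies between Lama5 (-1.13), which fell, and Col20a1 (0.96), which rose, 372 and 364 kb away. These pairs were not tested against other neighbouring genes.

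The members are longer than other genes, with a median of 7.24 kb of exon against 3.89 kb over all tested genes. Across the 68 members, which share the same 8 libraries, Spearman's rho of log2 fold change and exon length was -0.11, and across all tested genes with a length it was 0.16.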
